A study of Mus musculus with 6 samples.

Results

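The genes described here are 7 transcription factor genes of the endoderm: Gata6, Gata4, Sox17, Sox7, Foxa1, Foxa2 and Hnf4a. They were chosen by gene symbol, whatever their level, and each of the 7 matched 1 row among the 20460 genes of the deposited table. RNA was sequenced from J1 mouse embryonic stem cells, a line of strain 129S4/SvJae, in 6 libraries. The groups were the Carm1 shRNA line with 1 µM retinoic acid (RA), the scramble shRNA line with RA, the unmodified wild-type line with RA, and the same lines in the same order with the ethanol vehicle, 1 library each. Treatment lasted 48 h, and every group grew on gelatin in medium with LIF, the cytokine that holds embryonic stem cells in the pluripotent state. Carm1 encodes an arginine methyltransferase that acts as a coactivator of transcription. The labels name 1 line for each shRNA, so an effect of lowering Carm1 and a property of that line cannot be told apart. The labels mention no repeat cultures, and a p-value here reflects the spread among these 6 libraries, nothing wider.

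These factors act in a rough order as endoderm forms. In the blastocyst, Gata6 sets the primitive endoderm apart from the pluripotent epiblast under fibroblast growth factor (FGF) signalling, and Gata4, Sox17 and Sox7 follow it. Foxa1 and Foxa2, which can bind closed chromatin, and the nuclear receptor gene Hnf4a serve both the visceral endoderm of the yolk sac and the later gut and liver. RA acts through nuclear receptors and starts differentiation of embryonic stem cells, and depending on the culture it is known to favour primitive endoderm.

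Levels are in FPKM, a read number per kilobase of transcript that is also scaled to the depth of the library. With RA, Carm1 itself was at 6.73, 29.9 and 29.5 FPKM in the Carm1 shRNA, scramble and wild-type lines, and with vehicle at 8.49, 36.2 and 37.0 FPKM. The Carm1 shRNA line minus the scramble line was -1.98 ± 0.07 for Carm1 (log2 scale, SE, limma adjusted p = 0.0106). Estimated depth was 24700000 to 34200000 reads per library. Summed FPKM of the 8 pluripotency markers were 4083, 2678 and 3472 in the RA libraries of the Carm1 shRNA, scramble and wild-type lines, against 5227, 5170 and 4917 with vehicle, so the cells carried pluripotency RNA in every group. In such bulk RNA, fewer cells of a type and less RNA per cell cannot be told apart.

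All 7 factors were higher in every RA library than in every vehicle library, a pattern shared by 42.8% of the 14165 genes averaging 0.1 FPKM or more. Summed over the 7 factors, the Carm1 shRNA, scramble and wild-type lines held 20.2, 22.9 and 20.4 FPKM with RA, against 1.97, 2.21 and 1.61 FPKM with vehicle. The sum was thus close among lines within a treatment, while its make-up differed between lines. Hnf4a supplied 25.7% of the sum in the Carm1 shRNA line with RA, against 6.99% in the scramble line and 2.74% in the wild-type line with RA. With vehicle, Sox7 supplied 70.8% of the sum in the Carm1 shRNA line, against 32.9% in the scramble line and 27.0% in the wild-type line.

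**Figure D1:**
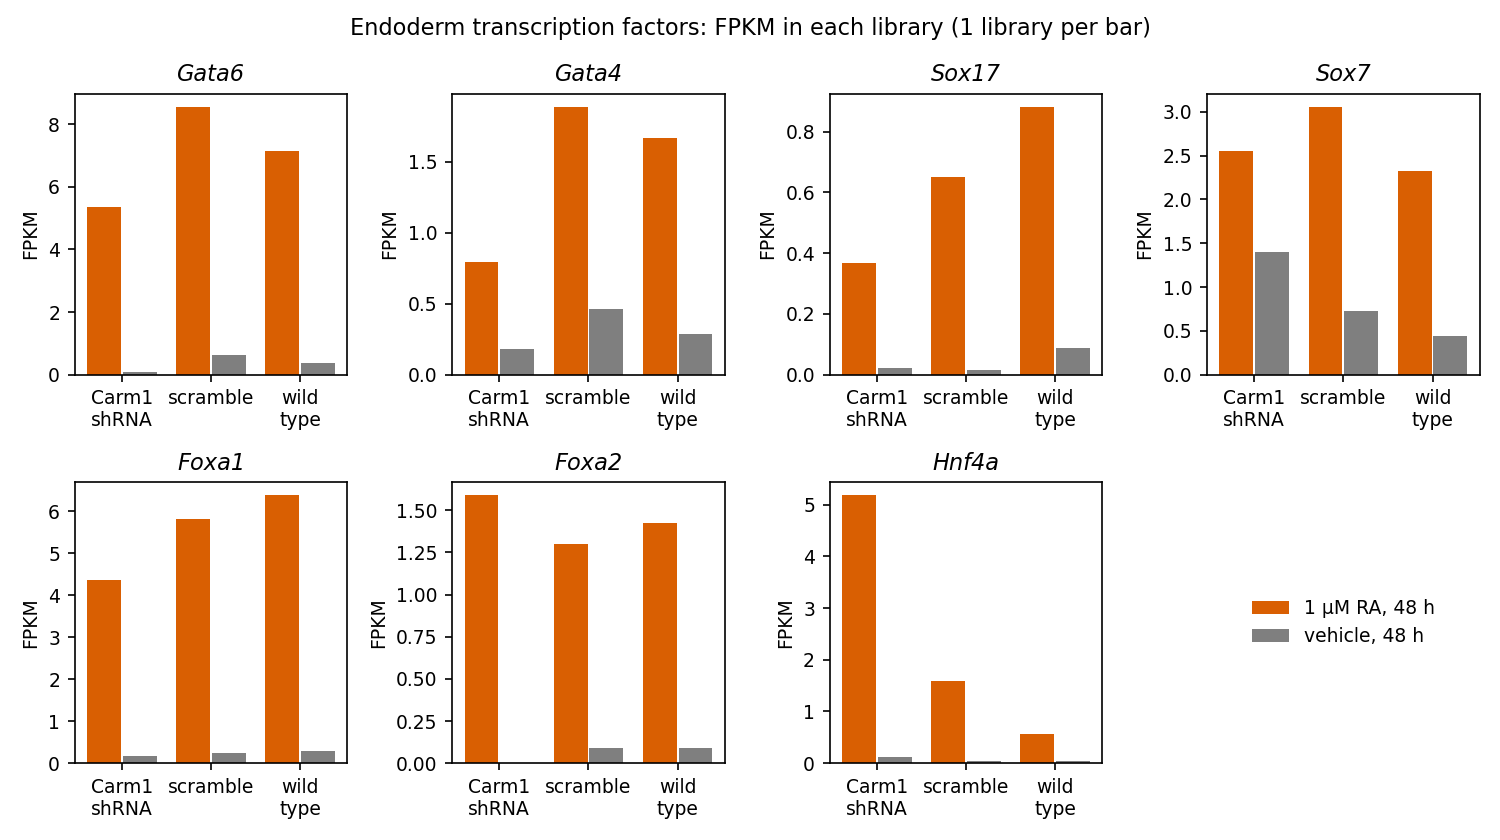
FPKM of the 7 endoderm factors in each of the 6 libraries, 1 bar per library, with RA bars left of vehicle bars for the Carm1 shRNA, scramble and wild-type lines and a separate linear axis for each gene. Every RA bar is taller than every vehicle bar of its gene, and Hnf4a with RA is 5.18 FPKM in the Carm1 shRNA line against 1.60 and 0.559 FPKM in the scramble and wild-type lines.

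Gata6 (model NM_010258 on chromosome 18) was the highest of the 7 with RA. Its level was 5.34, 8.55 and 7.15 FPKM with RA in the Carm1 shRNA, scramble and wild-type lines, against 0.0821, 0.623 and 0.364 FPKM with vehicle. The groups did not overlap, and the Carm1 shRNA library was the lowest of the 3 under either treatment. On the log2(FPKM + 1) scale, which is used for all differences below and which understates the change of low genes, RA minus vehicle was 2.55, 2.56 and 2.58 in the Carm1 shRNA, scramble and wild-type lines. The mean of 2.56 ± 0.06 (SE) passed the test (limma with line as a block, adjusted p = 0.000134) and ranked 84 of 20460 genes. limma draws the spread of each gene toward that of all genes tested, so SEs and p-values depend on the filter. With all genes tested, the SE for Gata6 was 0.008 and the limma adjusted p was 0.014. The lines were nearly equal on this scale only: the FPKM themselves were 65.1-fold higher with RA in the Carm1 shRNA line, 13.7-fold higher in the scramble line and 19.6-fold higher in the wild-type line. The Carm1 shRNA vehicle library held about 8 Gata6 reads, against about 50 in the scramble and 37 in the wild-type vehicle library, so the first of these ratios rests on few reads.

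Gata4 (NM_008092, chr14:63817752-63864097, build mm9), the partner GATA factor of primitive and visceral endoderm, was lower than Gata6 in every library but that of the Carm1 shRNA line with vehicle. It had 0.794, 1.89 and 1.67 FPKM with RA in the Carm1 shRNA, scramble and wild-type lines, against 0.178, 0.465 and 0.289 FPKM with vehicle. The Carm1 shRNA line was again lowest under either treatment, while the scramble and wild-type lines lay close to each other with RA. RA minus vehicle was 0.61, 0.98 and 1.05 in the Carm1 shRNA, scramble and wild-type lines. Gata4 fell short of the mean of 1 FPKM that the main test required. Among genes averaging 0.1 FPKM or more it rose by 0.88 ± 0.10 (limma adjusted p = 0.00228).

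The SOXF genes Sox17 and Sox7 encode HMG-box factors of the endoderm, which vascular endothelium also uses. Sox17 (NM_011441, chr1:4481009-4486494, mm9) had 0.367, 0.649 and 0.882 FPKM with RA in the Carm1 shRNA, scramble and wild-type lines, against 0.0233, 0.0152 and 0.0893 FPKM with vehicle. These are about 38, 64 and 94 reads with RA against about 2, 1 and 9 reads with vehicle, so no fold is given. The RA libraries stood apart from the vehicle libraries, with the Carm1 shRNA line lowest of the 3 RA libraries. RA minus vehicle was 0.42, 0.70 and 0.79 in the Carm1 shRNA, scramble and wild-type lines, with a mean of 0.64 ± 0.09 among genes averaging 0.1 FPKM or more (limma adjusted p = 0.00381).

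Sox7 (NM_011446, chr14:64562543-64569569, mm9) followed another pattern. With RA it had 2.55, 3.06 and 2.33 FPKM in the Carm1 shRNA, scramble and wild-type lines, against 1.40, 0.728 and 0.436 FPKM with vehicle. The 3 RA libraries were closer to each other than the 3 vehicle libraries in fold terms. With vehicle, the Carm1 shRNA line lay 1.92-fold above the scramble line and 3.21-fold above the wild-type line. Those vehicle values rest on about 141, 59 and 46 reads in the Carm1 shRNA, scramble and wild-type libraries. RA minus vehicle was 0.57 in the Carm1 shRNA line, 1.23 in the scramble line and 1.21 in the wild-type line, with a mean of 1.00 ± 0.15 (limma adjusted p = 0.00347). With all genes tested, however low, the adjusted p was 0.0674, so this call depends on the filter. Markers of endothelial and blood cells, the other cells that use SOXF factors, summed to 12.9 to 25.1 FPKM with RA against 12.9 to 21.3 FPKM with vehicle, and the 1 marker of 6 that could be tested did not pass. That marker was Pecam1, which embryonic stem cells also express, and the other 5 markers were too low to test. Of these, Tie1 had 0.668, 0.652 and 0.802 FPKM with RA in the Carm1 shRNA, scramble and wild-type lines, against 0.0369, 0.0710 and 0.178 FPKM with vehicle. Cdh5 had 1.12, 0.489 and 0.240 FPKM with RA in the same order, against 0.0695, 0.0173 and 0.0332 FPKM with vehicle. Kdr was higher with RA in each line within a range of 0.0857 to 0.126 FPKM, and Tal1 and Gata1 were lower with RA in each line. The part of such cells in the Sox7 and Sox17 values was not tested.

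Foxa1 (NM_008259, chr12:58641619-58647108, mm9) showed a steep response with little spread between lines. Its level was 4.36, 5.81 and 6.38 FPKM with RA in the Carm1 shRNA, scramble and wild-type lines, against 0.171, 0.249 and 0.299 FPKM with vehicle. The lines kept the same order under either treatment, with the Carm1 shRNA line lowest and the wild-type line highest. RA levels were 25.5-fold, 23.4-fold and 21.3-fold the vehicle levels in the Carm1 shRNA, scramble and wild-type lines. The vehicle libraries held about 17, 20 and 30 Foxa1 reads in that order, so these ratios are imprecise. RA minus vehicle was 2.19, 2.45 and 2.51, with a mean of 2.38 ± 0.08 (limma adjusted p = 0.000189) that ranked 113 of 20460.

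Foxa2 (NM_010446, chr2:147868614-147872705, mm9), its paralogue, which node and definitive endoderm need, changed at a lower level. It had 1.59, 1.30 and 1.42 FPKM with RA in the Carm1 shRNA, scramble and wild-type lines, against 0, 0.0880 and 0.0902 FPKM with vehicle. The RA libraries were close together and the vehicle libraries held about 0, 5 and 6 reads, so Foxa2 RNA was nearly undetected without RA in all 3 lines. RA minus vehicle was 1.37, 1.08 and 1.15 in the Carm1 shRNA, scramble and wild-type lines. Among genes averaging 0.1 FPKM or more the mean was 1.20 ± 0.08 (limma adjusted p = 0.00083).

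The stretches before the transcription starts of Foxa1 and Foxa2 are shown because these paralogues moved with RA in every line, so that binding motifs of the factors described here can be looked for in them. Each window holds the 250 bases before a RefSeq start (build GRCm38.p6), read 5′ to 3′ along the gene, and capitals mark a motif match. Foxa1 has 1 start, with its window at chr12:57546112-57546361 on the minus strand, and Foxa2 has 3, of which the first, at chr2:148046970-148047219 on the minus strand, begins where the annotated gene model does.
Foxa1: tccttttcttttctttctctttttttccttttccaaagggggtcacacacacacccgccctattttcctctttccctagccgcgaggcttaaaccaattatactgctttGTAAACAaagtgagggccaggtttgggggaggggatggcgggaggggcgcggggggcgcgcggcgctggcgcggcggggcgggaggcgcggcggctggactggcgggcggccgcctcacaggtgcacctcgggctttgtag
Foxa2, start 1: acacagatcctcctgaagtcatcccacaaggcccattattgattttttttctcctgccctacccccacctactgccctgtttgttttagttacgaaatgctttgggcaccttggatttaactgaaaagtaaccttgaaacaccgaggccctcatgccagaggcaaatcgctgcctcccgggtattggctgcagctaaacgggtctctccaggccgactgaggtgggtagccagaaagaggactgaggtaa
The motifs searched on both strands were AGATAA and TGATAA for GATA factors, TGTTTAC for FOXA factors, ATTGTT for SOX factors, AGGTCA as the core site of nuclear receptors, and CAAAGTCCA and CAAAGGTCA for HNF4. AGGTCA ends the HNF4 motif CAAAGGTCA and so overlaps it. The Foxa1 window held the FOXA motif once, on the strand opposite to the gene, at bases -141 to -135 from the start. Of 32851 promoter windows of that length, 3.17% hold this motif. The first Foxa2 window held none of the 7 motifs. The third Foxa2 window held AGATAA at bases -183 to -178. A match describes letters only and is not evidence of binding. Of the 7 genes, 3 (Foxa1, Foxa2 and Hnf4a) matched the promoter table.

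Hnf4a (NM_008261, chr2:163372924-163398643, mm9) encodes an orphan nuclear receptor that drives visceral endoderm and liver genes. With RA it was the member that differed most between lines. Its level was 5.18, 1.60 and 0.559 FPKM with RA in the Carm1 shRNA, scramble and wild-type lines, against 0.122, 0.0416 and 0.0452 FPKM with vehicle. The Carm1 shRNA line with RA stood 3.24-fold above the scramble line and 9.26-fold above the wild-type line, and the 2 controls also differed, the wild-type line being 0.350 of the scramble line. These RA values rest on about 750, 221 and 83 reads in the Carm1 shRNA, scramble and wild-type libraries, and the vehicle values on about 16, 4 and 6. RA minus vehicle was 2.46, 1.32 and 0.58. The mean was 1.45 ± 0.35 (limma adjusted p = 0.0156), and this call was lost without the scramble line (adjusted p = 0.0656), under quantile normalization (0.86, adjusted p = 0.0991) and with all genes tested (adjusted p = 0.151).

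RefSeq gives 2 starts for Hnf4a, and both windows are shown because they decide which transcripts the Hnf4a values can hold. The deposited model spans 25720 nucleotides, and the annotated gene model of 25718 nucleotides begins 33 nucleotides from the second start and 40331 nucleotides from the first. The first exon of transcripts from the upstream start is therefore outside the measured model, while exons they share with the downstream start are inside it. The upstream window lies at chr2:163506607-163506856 and the downstream window at chr2:163546905-163547154, both on the plus strand of GRCm38.p6.
Hnf4a, upstream start: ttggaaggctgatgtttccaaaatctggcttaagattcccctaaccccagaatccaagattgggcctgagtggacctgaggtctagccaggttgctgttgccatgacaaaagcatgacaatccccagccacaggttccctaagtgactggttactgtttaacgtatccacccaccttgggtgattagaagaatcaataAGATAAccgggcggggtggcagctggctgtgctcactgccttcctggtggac
Hnf4a, downstream start: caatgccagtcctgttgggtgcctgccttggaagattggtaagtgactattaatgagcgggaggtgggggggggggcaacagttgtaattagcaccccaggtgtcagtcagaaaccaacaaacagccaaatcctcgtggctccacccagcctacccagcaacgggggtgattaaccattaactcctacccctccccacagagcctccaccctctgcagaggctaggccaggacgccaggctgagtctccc
The upstream window held the GATA motif AGATAA, in capitals, at bases -52 to -47, a motif present in 9.99% of the windows. The downstream window held none of the 7 motifs. Reads were not assigned to either start here.

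By mean level with RA the order was Gata6 at 7.01 ± 1.61 FPKM, Foxa1 at 5.52 ± 1.04, Sox7 at 2.64 ± 0.37, Hnf4a at 2.45 ± 2.43, Gata4 at 1.45 ± 0.58, Foxa2 at 1.44 ± 0.14 and Sox17 at 0.633 ± 0.258 (SD over the 3 RA libraries). Of the 6 neighbouring pairs, only Foxa1 above Sox7 and Foxa2 above Sox17 had ranges that did not overlap. With vehicle the means were 0.356 ± 0.271 FPKM for Gata6, 0.240 ± 0.064 for Foxa1, 0.854 ± 0.494 for Sox7, 0.0695 ± 0.0453 for Hnf4a, 0.310 ± 0.145 for Gata4, 0.0594 ± 0.0515 for Foxa2 and 0.0426 ± 0.0407 for Sox17 (SD over the 3 vehicle libraries). Sox7 was the highest of the 7 with vehicle in every line, and Gata6 and Foxa1 stood above it with RA in every line.

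The main test covered the 4 factors with a mean of at least 1 FPKM, and all 4 rose (Gata6, Foxa1, Sox7 and Hnf4a). Their vehicle means were all below 1 FPKM, so each reached that minimum only through its RA libraries, and the count of 4 is no support for a shared response. Over the 11227 genes tested, 42.9% rose and 20.7% fell. With genes averaging 0.1 FPKM or more, 7 of 7 factors rose and 43.3% of genes did. Sox17, Foxa2 and Hnf4a passed that lower minimum too only through their RA libraries, so nothing is read from this count. With all 20460 genes, 4 of 7 rose (Gata6, Gata4, Foxa1 and Foxa2), against 18.2% of genes. In all 3 lines separately the rise reached 2-fold on the log2(FPKM + 1) scale for 5.22% of the tested genes. Among the factors this held for Gata6 and Foxa1, and also for Foxa2, which was below the minimum of the main test. In FPKM itself, Gata4 (4.47, 4.06 and 5.77) and Hnf4a (42.6, 38.4 and 12.4) were also past 2-fold in the Carm1 shRNA, scramble and wild-type lines. The Hnf4a ratios rest on few vehicle reads, and those of Sox17 are too few for a fold. The RA libraries were shifted as a whole: the median change of all tested genes was 0.14, and 67.4% of calls were rises, against 50.2% with median-of-ratios scaling and 43.8% with quantile normalization. The rises of Gata6, Foxa1 and Sox7 passed under both of these scalings, with Sox7 at 0.52 under quantile normalization (limma adjusted p = 0.0368).

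**Figure D2:**
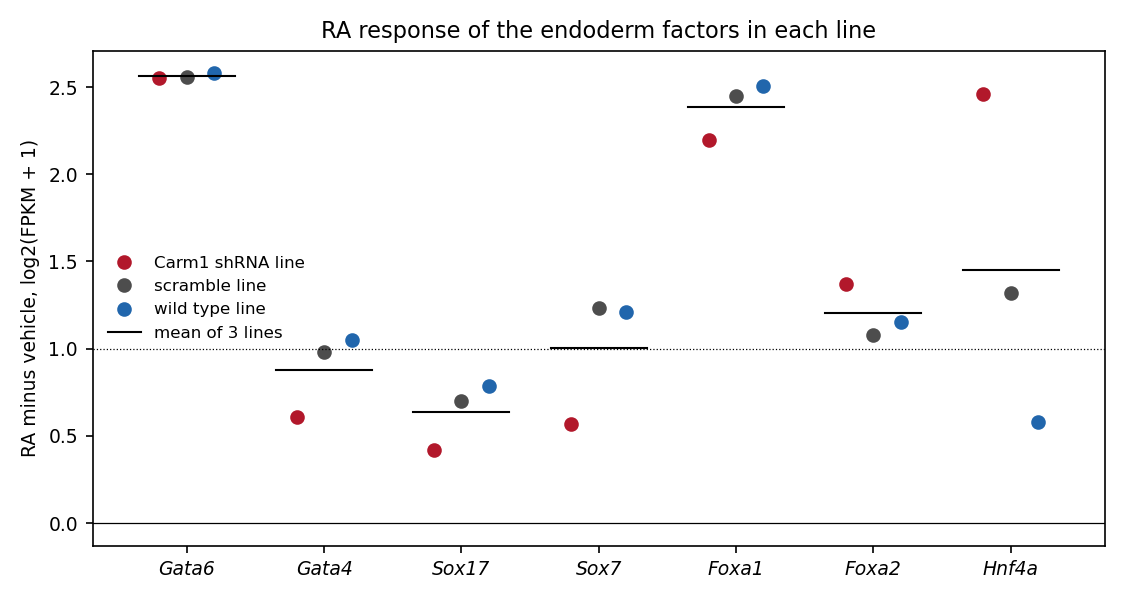
RA minus vehicle for each factor on the log2(FPKM + 1) scale, 1 point per line (red Carm1 shRNA, grey scramble, blue wild type) with a black line at the mean of 3 lines and a dotted line at 2-fold. The 3 lines coincide for Gata6 (2.55 to 2.58) and fan out for Hnf4a (0.58 to 2.46).

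Between lines, the factors split. With RA, Gata6, Gata4, Sox17 and Foxa1 were lower in the Carm1 shRNA line than in both controls, which is 4 of 7 factors against 34.5% of the 14165 genes averaging 0.1 FPKM or more. Foxa2 and Hnf4a were higher than in both controls, which is 2 of 7 against 29.4% of genes, and Sox7 lay between the controls. The FPKM of the Carm1 shRNA line were 0.625 of the scramble and 0.747 of the wild-type value for Gata6, 0.421 and 0.476 for Gata4, and 0.750 and 0.684 for Foxa1. For each of these 4 lower factors the distance below the nearer control (log2(FPKM + 1) scale) was greater than the distance between the controls, which held for 15.5% of genes. For Gata4, the distance was 0.57 against 0.11 between the controls, and for Gata6 it was 0.36 against 0.23. Foxa2 and Hnf4a lay above the nearer control by more than the controls differed, which held for 12.4% of genes. The distance was 0.10 against 0.07 for Foxa2 and 1.25 against 0.74 for Hnf4a. The Foxa2 values rest on about 112, 88 and 104 reads in the Carm1 shRNA, scramble and wild-type RA libraries. Whether so small a gap exceeds counting error was not tested. With 1 library per line and treatment, none of these differences has a replicate check.

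Only Hnf4a was at least 2-fold from both controls with RA, on the log2(FPKM + 1) scale. In FPKM itself, Gata4 was also more than 2-fold below both (0.421 of the scramble and 0.476 of the wild-type value). Hnf4a was 1 of 19 genes higher by the rule on the log2(FPKM + 1) scale, which is 0.169% of tested genes, while 0.143% were lower. Hnf4a ranked 8 of 20460 for the Carm1 shRNA line minus the mean of the controls with RA. In either direction 35 genes passed for the Carm1 shRNA line, against 8 when the scramble line took its place and 97 when the wild-type line did, so the wild-type line stood apart for more genes. With vehicle, 0 of 7 factors and 0.169% of genes passed. Gata6 with vehicle was 0.132 of the scramble and 0.226 of the wild-type level in FPKM, and it passed with a pseudocount of 0.1.

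Tests over both treatments compare these lines only. The Carm1 shRNA line minus the scramble line was called for 0 of the 4 tested factors and for 0.0178% of all tested genes (2 genes by limma, and 1188 at an unadjusted p under 0.05). The value for Gata6 was -0.59 ± 0.07, with an unadjusted p of 0.000429 and a limma adjusted p of 0.138. For Gata4 it was -0.50 ± 0.13 among genes averaging 0.1 FPKM or more (limma adjusted p = 0.334). For Hnf4a it was 0.68 ± 0.42 (limma adjusted p = 0.636). The scramble line minus the wild-type line, both without the Carm1 shRNA, gave 201 calls, and the Carm1 shRNA line minus the wild-type line gave 638. None of the 4 tested factors was among either.

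The difference in RA response between the Carm1 shRNA line and the controls was 1.52 ± 0.33 for Hnf4a (unadjusted p = 0.0056) and -0.66 ± 0.16 for Sox7 (unadjusted p = 0.0101). Both had a limma adjusted p of 0.9996, and 0 of 11227 genes (0%) were called, with 409 at an unadjusted p under 0.05 and 1 called with limma's trend option. The values were -0.02 ± 0.16 for Gata6, whose sign turned with a pseudocount of 0.1 (1.13), and -0.28 ± 0.17 for Foxa1. Among genes averaging 0.1 FPKM or more they were -0.41 ± 0.16 for Gata4, -0.33 ± 0.17 for Sox17 and 0.26 ± 0.16 for Foxa2, with a limma adjusted p of 0.999 for each. That model left 1 residual degree of freedom, so a missed threshold does not show that the lines responded alike.

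**Figure D3:**
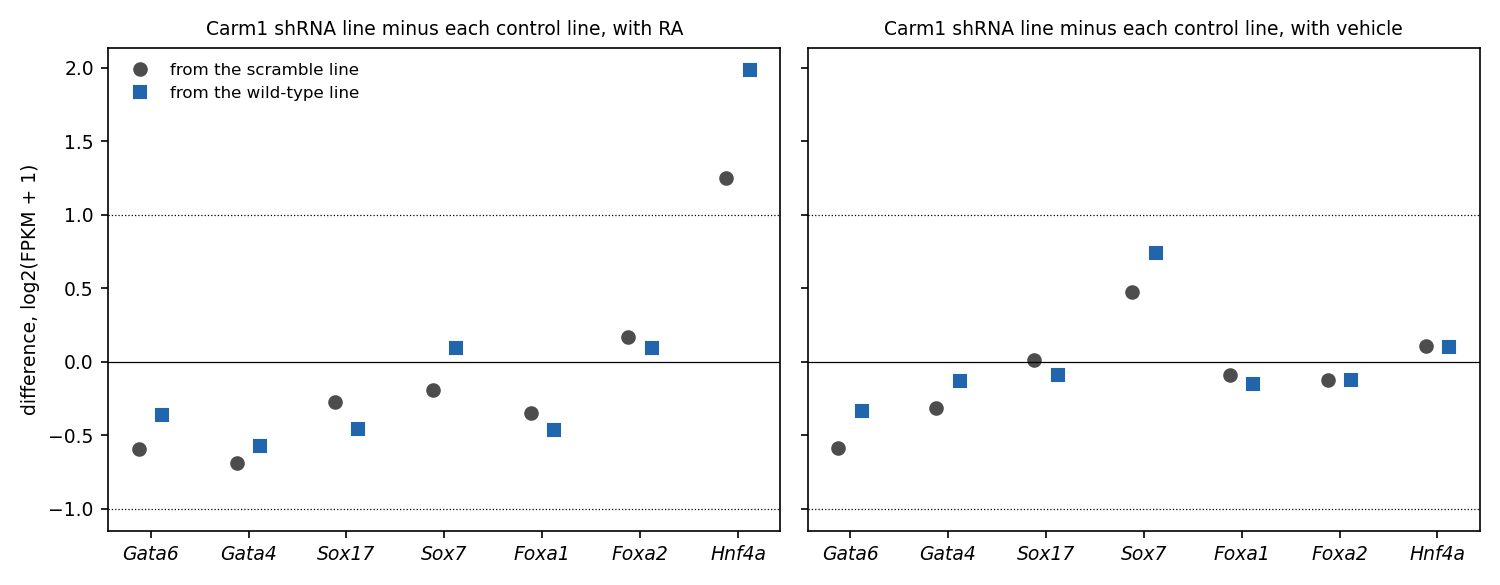
Carm1 shRNA line minus the scramble line (grey circles) and minus the wild-type line (blue squares) for each factor on the log2(FPKM + 1) scale, with RA (left) and with vehicle (right), and dotted lines at 2-fold. With RA, Hnf4a lies past 2-fold from both controls (1.25 and 1.99), and Gata6, Gata4, Sox17 and Foxa1 lie below 0 against both. With vehicle, Sox7 is highest (0.47 and 0.74).

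The genes most like each factor over the 6 libraries were sought among 2546 genes by Pearson correlation on the log2(FPKM + 1) scale, as a description in which the libraries share the split by RA. Closest to Gata6 were Susd1, Stox2 and Cidea (r of 0.998, 0.998 and 0.997). Closest to Foxa1 were Nap1l5, Hoxb8 and Fam211a (0.999 each), to Gata4 Tmem80, Enho and Car3 (0.998, 0.997 and 0.996), and to Sox7 Spats2l, Fam173a and Slc35f5 (0.997, 0.994 and 0.992). For Foxa2 they included 2200002D01Rik and Prss50 (0.999 and 0.998). For Hnf4a they were Prss35, Radil and Igfbp7 (0.995, 0.990 and 0.990). Igfbp7, which encodes a secreted binding protein, had 15.7, 5.85 and 2.82 FPKM with RA in the Carm1 shRNA, scramble and wild-type lines, against 2.48, 1.495 and 1.43 FPKM with vehicle. With RA the lines stood in the order seen for Hnf4a, for which likeness it was chosen. Among the 7 factors the correlation was highest for Gata6 with Foxa1 (0.991) and lowest for Hnf4a with Gata4 (0.455).

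A list of 36 genes of extraembryonic endoderm, the tissue in which these factors act together, had 35 genes in the table and 20 above the minimum. Of these 20, 17 rose, 1 fell and 2 did not pass, while 42.9% of all tested genes rose and 20.7% fell. Some of the 17 reached the minimum only through their RA libraries, so nothing is read from this count. Plat, for example, had 0.0681, 0.206 and 0.152 FPKM with vehicle in the Carm1 shRNA, scramble and wild-type lines. The median change was 1.27 over the tested genes and 0.64 over all 35, against 0.14 and 0.03 over all genes tested and all genes in the table. The median of 1.27 carries the same limit as the count. The 0.03 includes the genes below the minimum, whose changes this scale understates. The list was also chosen with earlier results of these data known, so nothing is read from either median. The 5 most abundant were basement membrane and secretory genes. Sparc, a matrix protein gene, had 216.6, 182.1 and 128.4 FPKM with RA in the Carm1 shRNA, scramble and wild-type lines, against 104.7, 93.7 and 85.1 FPKM with vehicle, and rose by 0.86 ± 0.10. The laminin gene Lamc1 rose by 0.52 ± 0.07 and Serpinh1, a collagen chaperone gene, by 2.97 ± 0.15 (limma adjusted p = 0.002, 0.00252 and 0.000335 for Sparc, Lamc1 and Serpinh1). Apoe, a lipoprotein gene of the yolk sac and many other cells, fell by 1.49 (SE 0.21, limma adjusted p = 0.00293), and Nid2 had -0.13 ± 0.10 (limma adjusted p = 0.286). Of the 15 untested genes, 7 had a positive and 2 a negative difference in each line.

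Secreted products of visceral endoderm varied in level. The retinol carrier gene Rbp4 had 4.25, 4.43 and 4.40 FPKM with RA in the Carm1 shRNA, scramble and wild-type lines, against 0.576, 1.37 and 1.52 FPKM with vehicle, and rose by 1.35 ± 0.14 (limma adjusted p = 0.00127). The transferrin gene Trf had 12.9, 11.7 and 8.20 FPKM with RA in the same order of lines, against 2.74, 3.81 and 5.02 FPKM with vehicle, and rose by 1.30 ± 0.24 (limma adjusted p = 0.00682). Others were at or near 0. Afp was at 0 in 5 libraries and 0.0261 FPKM in the wild-type line with RA, Ttr was at 0 in all but the Carm1 shRNA line with RA (0.0836 FPKM), and Apoa4 and Apoc3 were at 0 throughout. Apob, a lipoprotein gene, had 0.809, 0.309 and 0.285 FPKM with RA in the Carm1 shRNA, scramble and wild-type lines. With vehicle it had 0.162, 0.0653 and 0.0636 FPKM. It was thus highest in the Carm1 shRNA line under either treatment. Apoa1, another lipoprotein gene of the list, was lower with RA in each line. It had 0.0877, 0.0313 and 0.0295 FPKM with RA in the same order, against 0.129, 0.0839 and 0.0310 FPKM with vehicle. All genes named in this paragraph were picked after their values were seen. Pdgfra, a receptor gene of primitive endoderm, had 0.690, 1.35 and 1.30 FPKM with RA in the Carm1 shRNA, scramble and wild-type lines. With vehicle it had 0.105, 0.211 and 0.112 FPKM, so the Carm1 shRNA and wild-type lines were close. List genes differed in their order of lines with RA. Pdgfra and Lrp2 were lowest in the Carm1 shRNA line, Trf was highest there and Dab2 lay between the controls.

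Of 20 genes of definitive endoderm and mesendoderm, 8 were tested, 1 rose, 2 fell and 5 did not pass. The balance depended on the filter, with 5 of 7 calls higher among genes averaging 0.1 FPKM or more. The NODAL coreceptor gene Tdgf1 fell by 1.06 (SE 0.16, limma adjusted p = 0.00398). The other fall was that of Otx2, a factor gene of epiblast and anterior visceral endoderm (-1.48 ± 0.14, limma adjusted p = 0.00111). Trh had 0.30 ± 0.14, Nodal 0.07 ± 0.07 and Hhex -0.22 ± 0.10, none past the threshold (limma adjusted p = 0.11, 0.458 and 0.0979). The median was -0.04 over the tested genes. The 12 untested genes included 7 with a positive and 2 with a negative difference in each line.

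Among 20 relatives and partners of the 7 factors, 7 were tested, 3 rose, 3 fell and 1 did not pass, while 7 of 11 calls were higher among genes averaging 0.1 FPKM or more. Klf5 fell by 0.74 ± 0.10, Nr5a2, an orphan nuclear receptor gene, by 0.92 ± 0.08 and Tead4 by 1.21 ± 0.07, while the coactivator gene Yap1 rose by 0.28 ± 0.06 and the GATA cofactor gene Zfpm1 by 0.44 ± 0.07 (limma adjusted p of 0.00238, 0.000924, 0.000462, 0.0113 and 0.00343 for Klf5, Nr5a2, Tead4, Yap1 and Zfpm1). The median was -0.45. The third rise was Gata3, and it had 3.15, 1.98 and 0.855 FPKM with RA in the Carm1 shRNA, scramble and wild-type lines, against 0.0896, 0.0138 and 0.0532 FPKM with vehicle, the order of lines seen for Hnf4a.

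All 15 genes listed as signals upstream of primitive endoderm were tested, of which 6 rose, 5 fell and 4 did not pass, with a median of 0.07. With median-of-ratios scaling 9 were called, of which 3 were higher. The transcription factor genes Etv5 and Etv4, read-outs of FGF signalling, fell by 0.74 ± 0.10 and 0.88 ± 0.09 (limma adjusted p = 0.00249 and 0.00139). Nanog, which opposes Gata6 in the blastocyst, had 594.8, 369.6 and 433.8 FPKM with RA in the Carm1 shRNA, scramble and wild-type lines, against 455.9, 415.7 and 431.4 FPKM with vehicle, and did not pass (limma adjusted p = 0.603). Dusp6 did not pass either, with 0.07 ± 0.22 (limma adjusted p = 0.805). Fgf4, the ligand gene, had 46.4, 18.6 and 15.8 FPKM with RA in the Carm1 shRNA, scramble and wild-type lines, against 46.3, 39.1 and 41.4 FPKM with vehicle. Its mean over the lines fell by 0.79 ± 0.26 (limma adjusted p = 0.0437), but RA minus vehicle was 0.004, -1.03 and -1.34 in the same order. Only the control lines fell, and the difference in RA response was 1.19 ± 0.20 (limma adjusted p = 0.9996). Fgf4 was the 1 gene of this list at least 2-fold from both controls with RA, and was named for that. The receptor gene Fgfr2, also named after its values were seen, rose by 2.39 ± 0.19 (limma adjusted p = 0.000824).

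**Figure D4:**
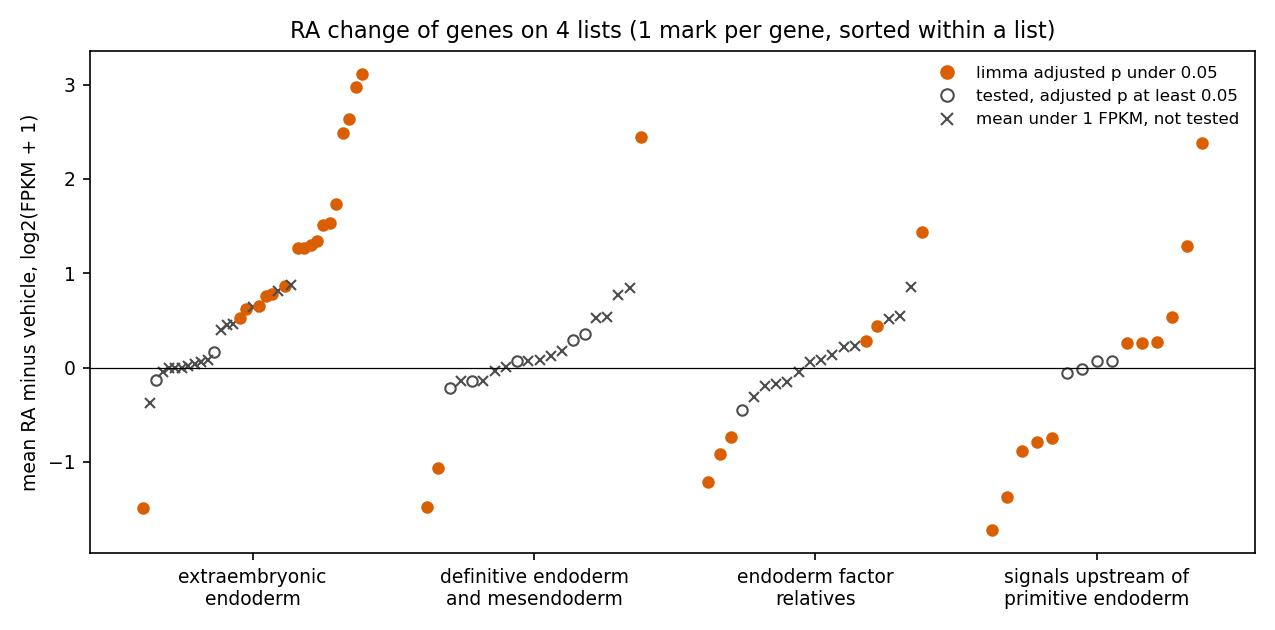
Mean RA minus vehicle over the 3 lines on the log2(FPKM + 1) scale for each gene of 4 lists, sorted within a list, with filled circles for a limma adjusted p under 0.05, open circles for tested genes that missed it and crosses for genes below a mean of 1 FPKM. In the extraembryonic endoderm list 17 filled circles lie above 0 and 1 below, and in the other lists 1 and 2, 3 and 3, and 6 and 5. Of all tested genes 42.9% rose and 20.7% fell, and some list genes reached the minimum only through their RA libraries.

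Markers of other cells moved beside the 7 factors. Of 8 pluripotency markers, 0 rose and 6 fell, while 42.9% of all tested genes rose and 20.7% fell. Neural markers had 3 rises and 1 fall among 4 tested of 6, with sums of 96.0 to 132.9 FPKM with RA against 120.4 to 140.7 FPKM with vehicle and Neurog2 at 0. These sums were mostly Tubb3, the 1 fall, with 117.1, 72.0 and 65.9 FPKM with RA in the Carm1 shRNA, scramble and wild-type lines. With vehicle Tubb3 had 127.9, 108.1 and 122.3 FPKM. The rises were Sox1, Nes and Pax6. Fibroblast and feeder markers had 2 rises and 1 fall among 3 tested of 7. Their sums were 3.65 to 7.12 FPKM with RA against 1.55 to 2.10 FPKM with vehicle, with Postn at 0. The rises were Col1a1 and Col1a2, with vehicle values of at most 0.251 and 0.0298 FPKM. Both, like Pax6, reached the minimum of the main test only through RA libraries. Nothing is therefore read from the neural and fibroblast counts. No trophoblast marker of 5 was tested, and their sums were 1.44 to 1.66 FPKM with RA against 0.318 to 0.420 FPKM with vehicle, with Elf5 at 0. The 4 hepatocyte markers, cells in which Hnf4a and Foxa2 are high, summed to 0.0157 to 0.0323 FPKM with RA against 0 to 0.0179 FPKM with vehicle, with Alb and G6pc at 0. The part of neural, fibroblast or trophoblast cells in the values of the 7 factors was not tested.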

How the data were processed

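The authors deposited FPKM per gene from single-end 51-nucleotide reads. The submitters' processing notes name TopHat2, Cufflinks and build mm9. Their versions, and any scaling between libraries, were not found in the labels or file headers. Of 20793 rows, 2 with a failed estimate were left out, and each repeated symbol (519 rows) was reduced to its most abundant row, leaving 20460 genes. Groups follow the labelled genotype and treatment. The fit used limma 3.58.1 in R 4.3.3 on log2(FPKM + 1), with line and treatment as terms (2 residual degrees of freedom) and Benjamini-Hochberg adjustment over 11227 genes averaging 1 FPKM or more (threshold 0.05). The line pairs the libraries, since each line was measured under both treatments. A model with an interaction of treatment and the Carm1 shRNA line left 1 residual degree of freedom. An exact two-sided permutation of 3 pairs cannot go below p = 0.25 and was not used. The script was tested on simulated data.

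Approximate reads come from the most frequent low step of FPKM times transcript length in each library, which gave the estimated depth. They are estimates, and FPKM of a few reads are imprecise. Total FPKM were 505266 to 537592. The members and gene lists were chosen with earlier results of these data known. Of each list, the 5 genes with the highest mean were named, and for each factor reaching 1 FPKM in a library the 3 most correlated genes averaging 1 FPKM or more with a range of at least 1 (log2). Some genes these rules name are not reported here. Other genes named are said to be chosen after their values were seen, or are the sole or last gene of a count. Promoter sequences are from RefSeq (GRCm38.p6), and no coordinates were converted between builds. Alternatives changed the pseudocount, the filter, the scaling, limma's trend option, the block, the fold and the lines included. The deposited FPKM came with status words, and no factor described here had a failed estimate.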

Additional observations from a re-analysis of the deposited data

Results flagged for a closer look

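Foxa2 differed from both controls in opposite directions in the treatments. In the Carm1 shRNA line it was above the scramble and wild-type lines with RA (1.59 against 1.30 and 1.42 FPKM, or about 112 against 88 and 104 reads). It was below both with vehicle (0 against 0.0880 and 0.0902 FPKM, or about 0 against 5 and 6 reads). Whether such small gaps in reads exceed counting error was not tested. The difference in RA response was 0.26 on the log2(FPKM + 1) scale. For Foxa2 this difference was not past the threshold among genes averaging 0.1 FPKM or more (limma adjusted p = 0.999), and the opposite directions themselves were not tested.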

How the results depend on the processing

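Among the 7 factors, the RA rises of Gata6 and Foxa1 passed in all 11 alternatives. With a mean of at least 0.1 FPKM the factors called numbered 7 in place of 4, the definitive endoderm list 7 in place of 3 (5 with quantile normalization; 5 of the 7 higher, against 1 of 3) and the relatives 11 in place of 6 (7 higher, against 3). Gata4 and Foxa2 also passed with no filter (adjusted p = 0.0457 and 0.026), while Sox17 missed it (0.0519). The Gata6 difference in RA response turned positive with a pseudocount of 0.1 (1.13) or 0.5 (0.25) and with median-of-ratios scaling (0.033). Genes 2-fold from both controls with RA (35) became 72 with a pseudocount of 0.1, 55 with 0.5 and 210 at 1.5-fold, and with vehicle (19) they became 46 with a pseudocount of 0.1, which added 1 factor (Gata6), and 106 at 1.5-fold. Carm1 shRNA minus scramble calls (2) became 4 with a pseudocount of 0.5, 0 with no filter or quantile normalization and 22 with limma's trend option. Scramble minus wild-type calls (201) became 64 with a pseudocount of 0.1, 0 with no filter, 91 with quantile normalization and 853 with the trend option. The trend option also called 1 gene for the difference in RA response. Leaving out a line gave 7 to 9 upstream signal genes (11 with all lines), 7 of them without the scramble line, and no replicate block gave 7, settings applied to that list after seeing the data. Without the line as a block the RA calls of the 4 tested factors held (Hnf4a adjusted p = 0.0353). The causes were not tested. The vehicle values of Sox17, Foxa2 and Hnf4a rest on few reads (at most 16).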
